A study of Mus musculus with 12 samples.

Results

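Toll-like receptors are innate immune receptors that recognise microbial molecules and molecules released from injured cells. On binding a ligand, most of them recruit the adaptor MyD88, while TLR3 signals through the adaptor TRIF (encoded by Ticam1) and TLR4 can use both, and the signal ends in NF-κB transcription factors such as the p50 and p65 subunits encoded by Nfkb1 and Rela. In the brain these receptors are best known from microglia, and HMGB1, a chromatin protein that can act as a ligand once it leaves the cell, has been studied together with them in alcohol research. The 10 genes described here are Tlr2, Tlr3, Tlr4, Tlr7 and Tlr9, the adaptor genes Myd88 and Ticam1, the NF-κB genes Nfkb1 and Rela, and Hmgb1, chosen by gene symbol out of the 33024 symbols of the count table. All 10 passed the filter on low counts, which left 16059 genes for testing.

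RNA was sequenced from the brain cortex of 12 wildtype C57BL/6 mice, 7 controls that drank water and 5 ethanol-administered mice. Drinking started in adolescence, at 30 days of age, and the ethanol-administered mice had a free choice between water and 20% (v/v) ethanol in the dark for 35 sessions. Mice of both groups then went through 14 days without ethanol and a series of behavioural tests before the brain was perfused with saline and the cortex was frozen, so the data describe a state after abstinence. Each library came from 1 mouse. Total counts ranged from 31768079 to 42183031 per mouse, and 3 counts, taken as the floor for detection, corresponded to at most 0.0962 CPM (counts per 1000000 counts of the tested genes). Levels are given below as CPM after TMM normalization, and a gene is said to pass the test at a Benjamini-Hochberg adjusted p under 0.05 in edgeR's quasi-likelihood test over all 16059 genes. It is said to be called when its log2 fold change is also above 0.5 in size, the threshold of the study.

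Between the groups, Tlr2 was lower in the ethanol-administered mice and was the only 1 of the 10 genes that was called. Both adaptor genes, Myd88 and Ticam1, were also lower and passed the test at a smaller size of change, while Tlr3, the receptor of double-stranded RNA, was higher. Tlr4, Tlr7, Tlr9, Nfkb1, Rela and Hmgb1 did not pass the test. Thus 1 of 10 was called lower and 0 were called higher, against 4.09% and 4.20% of all tested genes, and at any size of change 3 of 10 passed as lower and 1 of 10 as higher, against 11.6% and 12.1%. For none of the 10 genes were the groups fully separated, whereas 4.96% of all tested genes had every ethanol-administered mouse below every control and 4.84% had every one above. The median log2 fold change was -0.047 over the 10 genes and 7.2e-05 over all genes tested.

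**Figure D1:**
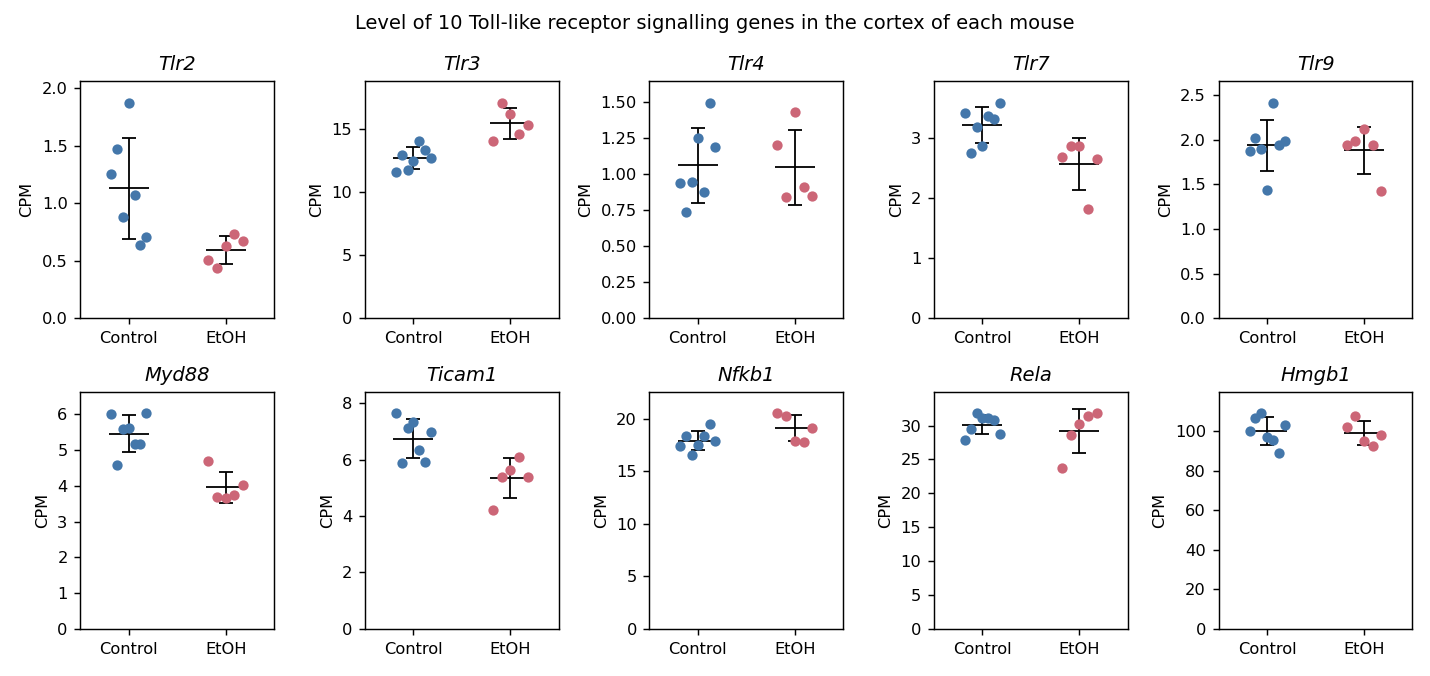
TMM-normalized CPM of each of the 10 genes, with 1 point per mouse, 7 controls and 5 ethanol-administered mice (EtOH); the horizontal bar is the group mean and the whiskers its SD. Tlr2, Myd88 and Ticam1 sit lower and Tlr3 sits higher in the EtOH mice, and in every panel the groups overlap by at least 1 mouse.

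Tlr2 encodes a receptor for bacterial lipoproteins that works as a heterodimer with TLR1 or TLR6. It lies on chromosome 3 of GRCm39 from 83743576 to 83749074, and no exon of another annotated gene overlaps its exons. The 250 bases before the annotated start of its canonical transcript (GRCm39, chr3:83749075-83749324, minus strand) are shown because Tlr2 is the called gene and because this stretch holds matches to the consensus motif of NF-κB itself. They are followed by the same stretch of Ticam1 (GRCm39, chr17:56583787-56584036, minus strand), a gene that was also lower, and by 30 bases around a match upstream of Tlr3 (GRCm39, chr8:45863609-45863638, minus strand), the gene that was higher. All are written 5′ to 3′, and capitals mark a match to the NF-κB consensus.
Tlr2: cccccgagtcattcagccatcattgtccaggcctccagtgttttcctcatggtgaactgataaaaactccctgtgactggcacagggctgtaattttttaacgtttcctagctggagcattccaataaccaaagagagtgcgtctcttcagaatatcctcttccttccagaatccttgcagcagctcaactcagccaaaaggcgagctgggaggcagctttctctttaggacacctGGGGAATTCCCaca
Ticam1: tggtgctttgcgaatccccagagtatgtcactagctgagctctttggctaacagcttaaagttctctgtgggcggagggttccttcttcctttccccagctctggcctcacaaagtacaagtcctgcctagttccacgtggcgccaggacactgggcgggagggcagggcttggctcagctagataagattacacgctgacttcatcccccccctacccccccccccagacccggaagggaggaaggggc
Tlr3: agttgtttctGGGAGTTTCCtgcttttgag
In the Tlr2 stretch, 2 overlapping matches, GGGGAATTCC and GGGAATTCCC, lay between 14 and 4 bases before the start. In Tlr3 the match, GGGAGTTTCC, lay between 204 and 195 bases before the start of the canonical transcript, and 190 of those 250 bases are covered by exons of other annotated transcripts. The NF-κB consensus was searched on both strands and was present in the stretches of 2 of the 10 genes and in 7.62% of the 21770 protein-coding genes with such a stretch. Of the other motifs searched on both strands, namely a pair of GAAA repeats with 2 bases between them, the core of the interferon-stimulated response element, TTCNNNGAA, the site shared by STAT factors, and GAGGAAGT, a site of the myeloid factor PU.1, none was present in any of the 10 stretches, and they were present in 3.32%, 7.7% and 2.08% of all. A match of letters is a description of the sequence and shows no binding.

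In the controls, Tlr2 had between 0.638 and 1.88 CPM, with a median of 1.07 CPM. In the ethanol-administered mice 1 to 5 it had 0.510, 0.436, 0.626, 0.728 and 0.669 CPM. All 5 ethanol-administered mice were below the control median and 3 were below every control, while controls 6 and 7, with 0.638 and 0.706 CPM, lay within the range of the ethanol group. The level fell from 1.13 ± 0.442 CPM (SD, n = 7) to 0.594 ± 0.119 CPM (SD, n = 5). The log2 fold change was -0.93, with a standard error of 0.28 (95% interval -1.52 to -0.33, edgeR adjusted p = 0.0246). These are low levels, resting on 14 to 60 counts per mouse, and the controls differed more among themselves than for any other of the 10 genes (coefficient of variation 39.2%). The call depended on single mice, since Tlr2 no longer passed the test without control 4 (log2 fold change -0.76, edgeR adjusted p = 0.0552), without ethanol-administered mouse 1 (-0.87, adjusted p = 0.0629) or without ethanol-administered mouse 2 (-0.85, adjusted p = 0.0538). In bulk tissue, fewer cells that express a gene and less RNA per cell cannot be told apart.

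The remaining receptors read nucleic acids or lipopolysaccharide. Tlr3, on chromosome 8 from 45848702 to 45864117, had between 11.6 and 14.02 CPM in the controls, with a median of 12.7 CPM. It had 14, 17.1, 16.1, 14.6 and 15.3 CPM in the ethanol-administered mice 1 to 5. Of these, 4 were above every control, and the first lay just below the highest control. Tlr3 rose from 12.7 ± 0.867 CPM (SD, n = 7) to 15.4 ± 1.21 CPM (SD, n = 5), which is 1.22 times the control level (log2 fold change 0.28, standard error 0.07, 95% interval 0.13 to 0.44, edgeR adjusted p = 0.0105). It passed the test in all 12 fits that left out 1 mouse, with log2 fold changes between 0.24 and 0.32. An annotated gene on the opposite strand covers 8.19% of its exon bases, and it is not described whether the counting used strand.

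Tlr7, an endosomal receptor of single-stranded RNA on chromosome X, had between 2.76 and 3.59 CPM in the controls, with a median of 3.32 CPM. The ethanol-administered mice 1 to 5 had 2.69, 2.86, 2.86, 1.82 and 2.64 CPM, all below the control median and 3 of them below every control. The log2 fold change was -0.32 (standard error 0.14, 95% interval -0.61 to -0.033), and it did not pass the test (edgeR adjusted p = 0.0979). Tlr9, an endosomal receptor of unmethylated CpG DNA, had between 1.44 and 2.42 CPM in the controls, with a median of 1.95 CPM. In the ethanol group it had 1.95, 1.99, 2.12, 1.94 and 1.43 CPM, so that the groups overlapped almost fully (log2 fold change -0.044, 95% interval -0.38 to 0.29, edgeR adjusted p = 0.867).

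Tlr4, the receptor of lipopolysaccharide, had between 0.735 and 1.50 CPM in the controls, with a median of 0.947 CPM. It had 1.21, 0.840, 1.43, 0.910 and 0.851 CPM in the ethanol group, with 3 mice below and 2 above the control median. Its log2 fold change was -0.013, but with 24 to 52 counts per mouse the 95% interval ran from -0.49 to 0.46 (edgeR adjusted p = 0.975). Any difference within that interval is compatible with these data. Its co-receptor genes Cd14 and Ly96 had log2 fold changes of -0.46 and -0.45 and did not pass the test (edgeR adjusted p = 0.0777 and 0.318).

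Myd88 encodes the adaptor shared by all the receptors named above except TLR3. On chromosome 9 from 119165000 to 119170486, it had between 4.60 and 6.03 CPM in the controls, with a median of 5.59 CPM. The ethanol-administered mice 1 to 5 had 4.68, 3.70, 3.67, 3.73 and 4.01 CPM. All 5 were below the control median and 4 were below every control, the exception being mouse 1, which lay just above control 2. Myd88 fell from 5.46 ± 0.514 CPM (SD, n = 7) to 3.96 ± 0.427 CPM (SD, n = 5), or 0.726 times the control level (log2 fold change -0.46, standard error 0.11, 95% interval -0.68 to -0.23, edgeR adjusted p = 0.00496). Among the 10 genes it had the smallest p, and it passed in all 12 fits that left out 1 mouse, with log2 fold changes between -0.53 and -0.43. Without ethanol-administered mouse 1 its change exceeded 0.5 in size, so that Myd88 was called in that fit. Exons of Acaa1a on the opposite strand cover 16.2% of the exon bases of Myd88, and Acaa1a itself did not pass (log2 fold change -0.032, edgeR adjusted p = 0.739).

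Ticam1 encodes TRIF, the adaptor through which TLR3 signals. On chromosome 17 from 56576319 to 56583786, it had between 5.88 and 7.64 CPM in the controls, with a median of 6.96 CPM. It had 4.20, 5.38, 5.64, 6.10 and 5.38 CPM in the ethanol-administered mice 1 to 5, all below the control median and 4 of them below every control. Ticam1 fell from 6.74 ± 0.693 CPM (SD, n = 7) to 5.34 ± 0.703 CPM (SD, n = 5), or 0.792 times the control level (log2 fold change -0.34, standard error 0.11, 95% interval -0.57 to -0.11, edgeR adjusted p = 0.0306). This was less stable than the difference in Myd88, as Ticam1 passed in 7 of the 12 fits that left out 1 mouse and had adjusted p-values up to 0.0926 in the others, the highest without ethanol-administered mouse 1. It did not pass without controls 1, 3 or 4 or ethanol-administered mouse 5 either, where the adjusted p lay between 0.0544 and 0.0642. TRIF's receptor gene and its own gene thus differed in opposite directions between the same mice, Tlr3 higher and Ticam1 lower.

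**Figure D2:**
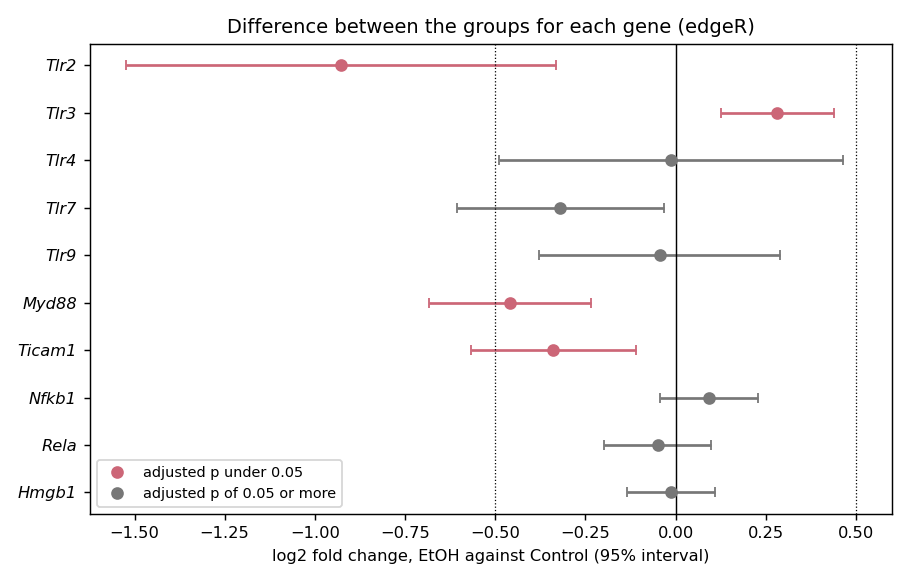
Log2 fold change of each of the 10 genes, ethanol-administered against control mice, with its 95% interval from edgeR's quasi-likelihood fit; dotted lines mark the threshold of 0.5 in size. Of the 4 genes that passed the test, Tlr2 (-0.93) lies beyond the dotted line, and Tlr3 (0.28), Myd88 (-0.46) and Ticam1 (-0.34) lie inside it.

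**Figure D3:**
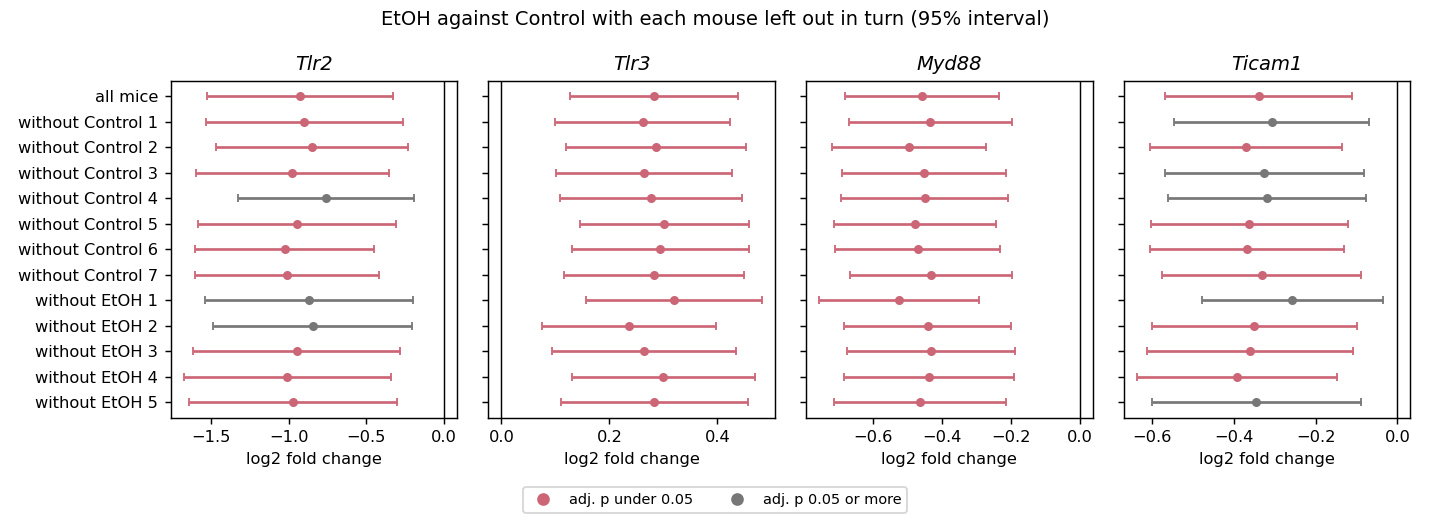
Log2 fold change with its 95% interval for the 4 genes that passed the test, with all mice and with each mouse left out in turn. The differences kept their direction in every fit, and grey points mark fits with an adjusted p of 0.05 or more, which are 3 of 12 for Tlr2 and 5 of 12 for Ticam1.

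The NF-κB subunit genes and Hmgb1 were the most precisely measured of the set and lay close to the control level. Nfkb1, the precursor of p50, had between 16.5 and 19.5 CPM in the controls, with a median of 17.8 CPM, and 20.5, 20.2, 17.9, 17.8 and 19.1 CPM in the ethanol-administered mice 1 to 5. Its log2 fold change was 0.093 (95% interval -0.043 to 0.23, edgeR adjusted p = 0.313), with 2 mice above every control. Rela, which encodes p65, had between 27.8 and 31.8 CPM in the controls, with a median of 30.9 CPM, and 23.8, 28.6, 30.2, 31.4 and 31.8 CPM in the ethanol group, where mouse 1 was the only one below every control. Its log2 fold change was -0.050 (95% interval -0.20 to 0.098, edgeR adjusted p = 0.646).

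Hmgb1 had between 89.1 and 109 CPM in the controls, with a median of 100.3 CPM, and 102, 108, 95.2, 92.6 and 98.1 CPM in the ethanol group. The ranges lay over each other, with a log2 fold change of -0.013 (95% interval -0.14 to 0.11, edgeR adjusted p = 0.893). The intervals of these 3 genes exclude changes of 0.5 in size in either direction at the level of RNA. HMGB1 acts as a ligand by leaving the cell, which RNA does not measure. The annotation also lists 13 pseudogenes or related sequences named after Hmgb1, and how reads that match several of them were counted is not described, so its level is uncertain. Exons of 3 other annotated genes, among them Uspl1 on the opposite strand, cover 9.95% of the exon bases of Hmgb1. Uspl1 itself did not pass (log2 fold change 0.060, edgeR adjusted p = 0.408).

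To compare the genes with each other, CPM was divided by the length of the annotated exons. In the controls, Hmgb1 had the highest level, 14.8 ± 1.02 CPM per kb (SD, n = 7), and Rela followed with 9.21 ± 0.445 CPM per kb. Tlr3 and Ticam1 came next with 2.37 ± 0.162 and 2.25 ± 0.232 CPM per kb, ahead of Myd88 and Nfkb1 with 1.40 ± 0.132 and 1.40 ± 0.0736 CPM per kb. Tlr7 and Tlr9 had 0.607 ± 0.0567 and 0.558 ± 0.0827 CPM per kb, and Tlr2 and Tlr4 were lowest with 0.205 ± 0.0804 and 0.152 ± 0.0373 CPM per kb. Within each of these 4 pairs the ranges of the controls overlapped, while every other step in the order was wider than the ranges. Tlr3 was therefore by far the most abundant of the 5 receptor transcripts in this cortex, and the surface receptors Tlr2 and Tlr4 the least abundant.

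**Figure D4:**
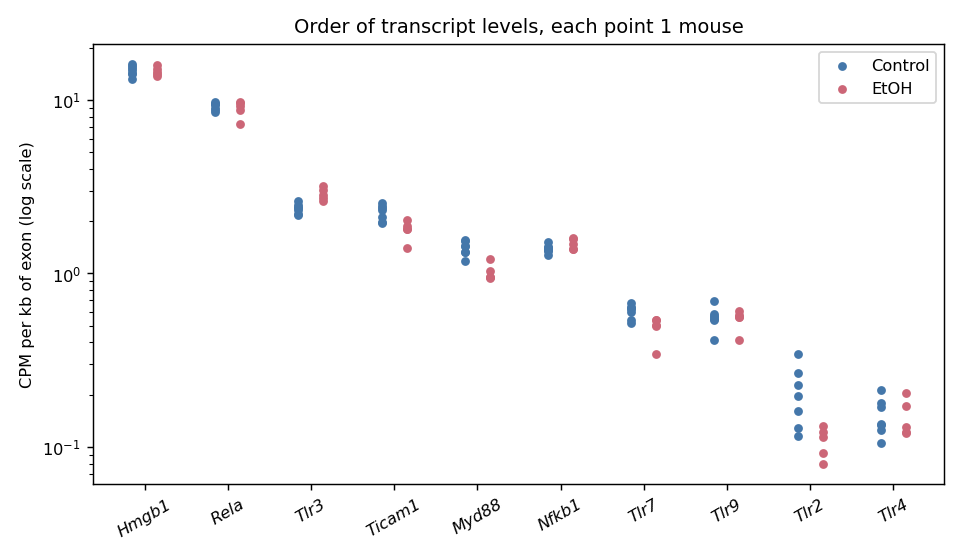
Level of each gene as CPM per kb of exon on a log scale, 1 point per mouse, ordered by the mean of the controls. Among the receptors Tlr3 stands highest (2.37 CPM per kb in the controls), and Tlr2 and Tlr4 lowest (0.205 and 0.152).

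Since Toll-like receptors are known from microglia, markers of this cell type and of the other cells and regions that a cortex sample could hold were read in the same mice. All 15 microglia markers were measured, none was at 0 in any mouse, all 15 had a negative log2 fold change (median -0.24), 8 of 15 passed the test as lower and 1 of 15, C1qb, was called (-0.52). Their summed level was 463 to 524 CPM in the controls and 394 to 421 CPM in the ethanol-administered mice, without overlap. Csf1r and Tmem119 fell by 0.15 and 0.32 on the log2 scale (edgeR adjusted p = 0.0284 and 0.00206), while Cx3cr1 and P2ry12, with log2 fold changes of -0.15 and -0.074, did not pass (adjusted p = 0.0547 and 0.518). The part of the microglial markers in the lower Tlr2, Myd88 and Ticam1 was not tested apart from the group, because 80.6% of the variance of the microglia marker score (mean log2 CPM) lay between the groups. With this score as a covariate, none of the 10 genes passed the test. The log2 fold change was -0.15 for Tlr2 (95% interval -1.35 to 1.04, edgeR adjusted p = 0.956) and 0.20 for Tlr3 (-0.15 to 0.56, adjusted p = 0.733). It was -0.62 for Myd88 (-1.13 to -0.11, adjusted p = 0.307) and -0.28 for Ticam1 (-0.81 to 0.24, adjusted p = 0.761). Tlr7 had the largest log2 fold change in size in that fit, -0.67 (95% interval -1.30 to -0.038, edgeR adjusted p = 0.403), and Tlr9 had -0.28 (adjusted p = 0.845). The other 4 of the 10 genes lay between -0.11 and 0.14. Myd88, Tlr7, Tlr9, Tlr4 (-0.11) and Hmgb1 (0.14) were further from 0 than without the covariate, and the other members were nearer. In the same fit only 68 of all genes were called higher and 115 lower, in place of 674 and 657.

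Among macrophages at the borders of the brain, 5 of 6 markers were tested and 2, Cd163 and Cbr2, were called lower, with log2 fold changes of -1.22 and -0.94. The other 3 did not pass, with log2 fold changes of -0.42 for Mrc1, -0.11 for Lyve1 and 0.37 for Pf4 (edgeR adjusted p = 0.363, 0.853 and 0.494). The summed level of this list was 6.54 to 10.9 CPM in the controls and 2.77 to 9.02 CPM in the ethanol group. Each of the 8 markers of blood myeloid cells was at 0 in at least 1 mouse, and their sum was 0.219 to 3.05 CPM in the controls and 0.303 to 2.52 CPM in the ethanol group, a level comparable to that of Tlr2. The 2 of them that could be tested, Ngp and Ltf, had log2 fold changes of -1.30 and -1.29 and did not pass (adjusted p = 0.174 and 0.257). The part of border macrophages and blood myeloid cells in the lower Tlr2 was not tested. Excitatory neuron markers of the cortex summed to 5551 to 7072 CPM in the controls and 6145 to 7307 CPM in the ethanol group. Most of this sum was Camk2a and Slc17a7, with control means of 3670 and 1955 CPM. Of the 10 markers, 3 passed the test as higher and 2 as lower. Among them Fezf2 was called higher (log2 fold change 0.60) and Lamp5 was called lower (-0.51). The groups also differed in markers of neighbouring regions. All 14 striatum markers were called lower (median log2 fold change -2.86), against 4.09% of all tested genes. Their sums were 1037 to 2475 CPM in the controls and 238 to 311 CPM in the ethanol group. Of the 10 hippocampus markers 7 were called higher (median 1.71), against 4.20% of all, with sums of 216 to 333 CPM against 421 to 442 CPM. Both lists were chosen with earlier results of these data known, so these counts are a description. The oligodendrocyte markers passed the test as lower for 9 of 10 genes (median -0.42) and the astrocyte markers as higher for 4 of 10 and lower for 1 of 10. The part of the regional make-up of the samples in the differences of the 10 genes was not tested, and 96% of the variance of the striatum marker score lay between the groups, so region and group cannot be told apart here.

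The other genes of the pathway were read from a list of 76 genes, of which 63 could be tested. Of these, 1 of 63 was called higher and 1 of 63 lower, against 4.20% and 4.09% of all tested genes. At any size of change 4 of 63 passed as higher and 6 of 63 as lower (median log2 fold change -0.095), against 12.1% and 11.6% of all. The list as a whole therefore held no more such genes than the table did, and the genes named below describe single members of it. The 2 called genes were Irak3 and Cd36. Irak3 encodes IRAK-M, an inhibitor of the MyD88 pathway. It fell from 1.80 ± 0.511 CPM (SD, n = 7) to 0.993 ± 0.159 CPM (SD, n = 5). On the log2 scale the difference was -0.86 (standard error 0.22, edgeR adjusted p = 0.0103), with ethanol-administered mice at 1.04, 1.03, 1.19, 0.759 and 0.942 CPM. Cd36 encodes a scavenger receptor that acts as a co-receptor of TLR2 and is also made by endothelial cells. It rose from 0.332 ± 0.165 CPM (SD, n = 7) to 0.957 ± 0.360 CPM (SD, n = 5). On the log2 scale the difference was 1.53 (standard error 0.34, edgeR adjusted p = 0.00325), on 4 to 56 counts per mouse. It passed the filter on low counts through the ethanol group, where it was high, and it was not tested when at least 10 counts were required in every mouse, since controls 1 and 7 had 8 and 4. Both Irak3 and Cd36 passed in all 12 fits that left out 1 mouse. These fits used the same kind of filter, so for Cd36 they do not remove that limit.

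The other receptors were not called. Tlr8 and Tlr11 were below the filter, with at most 6 and 2 counts in any mouse, and Tlr1, Tlr5, Tlr6, Tlr12 and Tlr13 had log2 fold changes between -0.42 and -0.046 and did not pass. Tlr1 and Tlr6, the partners of TLR2, had log2 fold changes of -0.19 and -0.26 on 6 to 36 and 6 to 22 counts per mouse (edgeR adjusted p = 0.719 and 0.539), and Tlr13, a receptor of bacterial ribosomal RNA, had -0.14 (adjusted p = 0.590). Among 9 co-receptor and trafficking genes, Ly86, which encodes the partner of the CD180 receptor, was lower (-0.28, edgeR adjusted p = 0.0308), but lost this in 6 of the 12 fits that left out 1 mouse (controls 2, 3 and 7 and ethanol-administered mice 1, 4 and 5, adjusted p 0.0508 to 0.0813). Unc93b1, whose product carries TLR3, TLR7 and TLR9 to endosomes, had a log2 fold change of -0.20 and did not pass (adjusted p = 0.0663).

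Among 4 other adaptor genes, Sarm1, which encodes an NAD-cleaving protein of axon degeneration that can also dampen TRIF signalling, was higher (0.26, edgeR adjusted p = 0.0187), though not without ethanol-administered mice 3 or 4 (adjusted p = 0.0545 and 0.0631). Tirap, the bridging adaptor of TLR2 and TLR4, had a log2 fold change of -0.027 and did not pass (adjusted p = 0.926). Of 15 genes grouped as kinases, ligases and related proteins, Irak2 was lower (-0.30, adjusted p = 0.00908) beside Irak3. Traf3, a ubiquitin ligase that links TRIF to interferon genes, was higher (0.38, adjusted p = 0.00745). Irak4 and Traf6, the core of the MyD88 pathway, had log2 fold changes of 0.012 and 0.11 and did not pass (adjusted p = 0.974 and 0.279).

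None of the 11 other genes of the NF-κB module passed the test. Nfkb2, Rel and Relb had log2 fold changes of -0.36, 0.21 and 0.012 (edgeR adjusted p = 0.104, 0.359 and 0.958). Nfkbia, which encodes the inhibitor IκBα and is itself induced by NF-κB, had a log2 fold change of -0.17 (adjusted p = 0.360). The interferon regulatory factor genes Irf3 and Irf7 had -0.17 and -0.30 and did not pass (adjusted p = 0.174 and 0.373). Of 6 inhibitors of the pathway, Cyld, a deubiquitinase, and Tnip1, a partner of the ubiquitin-editing enzyme A20, were lower, with log2 fold changes of -0.37 and -0.35 (adjusted p = 0.00028 and 0.00152). Every ethanol-administered mouse lay below every control for these genes and Hmgb2, 3 of the 63 on the list, close to the 4.96% of all tested genes, with Cyld between 133 and 163 CPM in the controls and between 105 and 123 CPM in the ethanol group. Exons of Gpx3 on the opposite strand cover 25.3% of those of Tnip1. Exons of other genes on the opposite strand also cover 38.1% of those of Nfkb2, 19.6% of Irak2 and 17% of Hmgb2, among others.

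The genes that the pathway switches on were largely at the limit of detection in both groups. Of 16 such genes, 10 were below the filter, among them Tnf, Il6, Ccl2 and Ifnb1. Ifnb1 had no counts in any mouse, and Tnf had none in any control and at most 0.243 CPM in the ethanol group. Il6 had at most 0.184 CPM and Ccl2 at most 0.513 CPM. Il1b, with 2 to 14 counts per mouse, had a log2 fold change of 0.076 with a 95% interval from -0.90 to 1.05 (edgeR adjusted p = 0.925), so large changes in either direction are compatible with these data. Of the 6 targets that could be tested 1 passed as higher, against 12.1% of all tested genes. This was Ptgs2 (0.39, edgeR adjusted p = 0.00549), which encodes cyclooxygenase-2 and is also expressed by cortical neurons. Vcam1, with a control mean of 24.2 CPM, did not pass (-0.0049, 95% interval -0.15 to 0.14, adjusted p = 0.969).

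Of the genes related to Hmgb1, Hmgb2 encodes a second HMG box protein, abundant in dividing cells. It fell from 3.13 ± 0.224 CPM (SD, n = 7) to 2.29 ± 0.261 CPM (SD, n = 5). The difference was -0.45 on the log2 scale (standard error 0.12, edgeR adjusted p = 0.0134), and every ethanol-administered mouse lay below every control. Without the deepest library of each group its adjusted p was 0.0510. Whether Hmgb2 and Hmgb1 differed from each other in their change was not tested. Ager, which encodes RAGE, another receptor of HMGB1, had a log2 fold change of -0.24 and did not pass (adjusted p = 0.657).

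**Figure D5:**
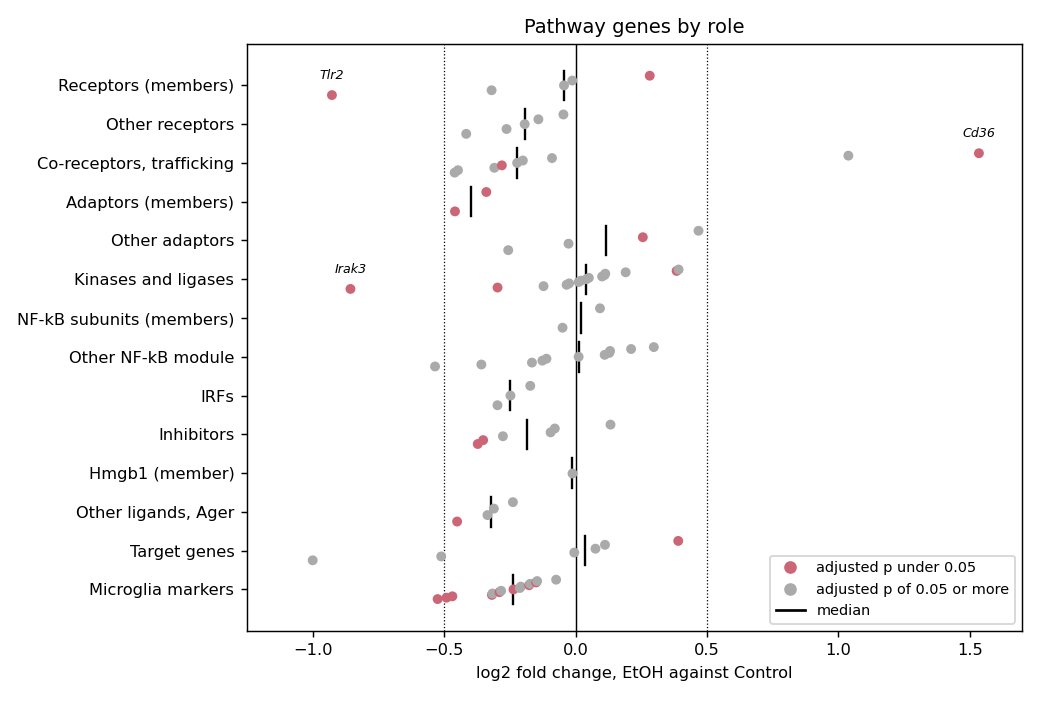
Log2 fold change of every tested gene of the pathway, grouped by role, with the 15 microglia markers in the lowest row; red points passed the test, black bars are medians and dotted lines mark 0.5 in size. Tlr2, Irak3 and Cd36 are the pathway genes beyond the dotted lines that passed the test, and all 15 microglia markers lie left of 0.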

How the data were processed

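Cortex RNA of 12 mice (7 Control, 5 EtOH, grouped by the sample labels) was analysed from 1 table. Per the study's methods and the submitters' processing notes, the authors checked DNBSEQ reads with FastQC 0.11.9, aligned them with STAR to GRCm39 (Gencode Release 28), counted them with featureCounts and deposited expected counts per gene symbol without normalization. For 61 symbols, none of them among the 10 genes, the values were not whole. All counts were rounded, and 0 columns were left unmatched. Strand and multi-mapping settings are not given in the sources used here.

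Genes were filtered with filterByExpr, normalized with TMM and fitted with edgeR 4.0.16 (R 4.3.3, limma 3.58.1, DESeq2 1.42.0) over all 16059 genes without covariates. CPM uses the TMM-adjusted total of tested genes, and marker scores use log2 CPM with a prior count of 2. Standard errors are the log2 fold change divided by the square root of F, and 95% intervals use the degrees of freedom of the fit. Positions, exon lengths and sequences are from GRCm39 with Gencode release M39, newer than the annotation the authors used. The fits were tested on simulated data. Libraries of the same group differed by more than sampling noise in every pair (chi-square over its degrees of freedom at least 7.78).

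The genes and lists were chosen with earlier results of these data known. Named are all 10 genes, the pathway genes called, 23 partner genes and 4 microglia markers fixed by name, and the 3 genes most correlated with each member of at least 100 counts; other genes were named after their values were seen. Alternatives were other factors, tools, filters and fold minimums, the replicate block, the microglia score as a covariate and each mouse left out; the fit without the deepest library of each group was added after seeing the data.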

Additional observations from a re-analysis of the deposited data

Results flagged for a closer look

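Of 44 sets of values examined for a mouse far from the rest of its group (the 10 genes, 11 marker lists and the total count, in each group), 6 held one, where chance gives about 2.2. The lowest Tlr7 level in the ethanol group was that of mouse 4, with 1.82 CPM, where the next mouse had 2.64 CPM. The lowest Tlr9 level there was that of mouse 5, with 1.43 CPM, where the next had 1.94 CPM. Without these mice the log2 fold change of Tlr7 was -0.22 and that of Tlr9 was 0.038, and neither passed the test (edgeR adjusted p = 0.233 and 0.895). The lymphocyte marker score of ethanol-administered mouse 4 was -2.74, where the next was -1.14, and it rests on 1 tested marker. Control 6 had the highest red cell marker score, 3.79, where the next control had 1.14. Control 5 had 40690226 counts, where the next control had 32356909, while the 42183031 counts of ethanol-administered mouse 1 compare with 33313165 in the next.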

How the results depend on the processing

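DESeq2, limma voom, relative log expression factors, both other filters and the replicate block left the calls and directions of Tlr2, Tlr3 and Myd88 as they were. The replicate numbers of both groups belong to different animals, and same-numbered mice did not deviate together (correlations from -0.11 to 0.018, 0 of 5 highest with their own number). With the replicate block, Ticam1, Ly86 and Hmgb2 no longer passed (-0.37, -0.24 and -0.44, adjusted p = 0.0632, 0.108 and 0.0596) and the log2 fold change of Tlr4 was 0.13; limma voom gave 0.0049 for Tlr4. Without a minimum fold change, 1947 of all genes were higher and 1863 lower, 1 and 3 of the 10 genes, and 4 and 6 of the pathway list. Of the pathway list, DESeq2 called 3 lower, a filter of at least 1 count in any mouse 2 higher, and one of at least 10 counts in every mouse, which leaves Cd36 untested, 0 higher and 2 lower. With the microglia score as covariate, 68 of all genes were called higher and 115 lower (70 and 117 at any fold), and 0 of the 10 genes and 0 of the pathway list in either direction; Hmgb1 then had 0.14. Without the deepest library of each group, 1 of the 10 genes passed as lower at any fold, with Tlr2 at -0.88 (adjusted p = 0.0648) and Ticam1 at -0.27 (adjusted p = 0.0801), and Tlr9 and Rela had 0.012 and 0.030. The cause was not tested.

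With each mouse left out in turn, 576 to 783 genes were called higher and 586 to 727 lower (1574 to 2284 and 1483 to 2388 at any fold). Of the 10 genes, 0 to 1 were called lower (0 without control 4 or ethanol-administered mouse 2), 0 called higher, and 1 to 3 passed as lower (1 without control 4 or ethanol-administered mouse 1) and 1 as higher at any fold. Of the pathway list, 1 to 2 were called higher (2 without ethanol-administered mouse 2 or 5) and 1 to 4 lower (4 without ethanol-administered mouse 2, 3 without control 7, 2 without control 1 or 5), and 3 to 6 (6 without control 7) and 5 to 10 (10 without control 5) at any fold. Log2 fold changes ranged from -0.15 to 0.089 for Tlr4, from -0.10 to 0.038 for Tlr9, from -0.085 to 0.021 for Rela and from -0.052 to 0.0094 for Hmgb1, none of which passed in any fit. Tlr2, Tlr4 and most target genes rest on few counts, which limits what could be detected.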

Other observations

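Some values near the threshold belong to no called group. Il1a, an interleukin gene with 7 to 33 counts per mouse, had 0.691 ± 0.314 CPM (SD, n = 7) in the controls and 0.343 ± 0.109 CPM (SD, n = 5) in the ethanol group, a log2 fold change of -1.0 that just failed the test (edgeR adjusted p = 0.0502). Icam1, an adhesion molecule of endothelial cells and leukocytes, had -0.51 (adjusted p = 0.0570). Lbp, which encodes the plasma protein that hands lipopolysaccharide to CD14, ranged from 0.871 to 10.2 CPM in the ethanol group and from 1.19 to 2.93 CPM in the controls, and did not pass (1.04, adjusted p = 0.0897).

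Genes whose levels varied most like those of a member over the 12 mice, after the mean of each group was removed, were looked up for the 6 genes with a mean of at least 100 counts. The closest to Tlr3 were A330033J07Rik, Wasf2 and Dcx (Pearson r 0.926, 0.911 and 0.909; Spearman rho 0.937, 0.888 and 0.832). Those closest to Myd88 were St8sia5, Xpnpep2 and Cobl (r 0.892, 0.877 and 0.875; rho 0.916, 0.804 and 0.839), and to Ticam1 Popdc2, Lipe and Snph (r 0.906, 0.869 and 0.861; rho 0.790, 0.825 and 0.755). For Nfkb1 they were Gstt2, Echs1 and Ddx50 (r 0.935, 0.869 and 0.850; rho 0.958, 0.839 and 0.867), for Rela Arsa, Trappc14 and Tcirg1 (r 0.912, 0.907 and 0.901; rho 0.888, 0.888 and 0.741), and for Hmgb1 Mrpl13, Mnat1 and Rpap3 (r 0.922, 0.917 and 0.914; rho 0.930 for each). None of these 18 genes is on the microglia marker list. Each was picked as the nearest among all tested genes, and the levels share the library and its depth, so the likeness is a description of these 12 mice.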
